A study of Mus musculus with 36 samples.

Results

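Chromatin accessibility at Actn2 was followed through direct cardiac reprogramming, in which fibroblasts of the mouse heart are driven towards a cardiomyocyte state. Actn2 encodes alpha-actinin-2, the protein that crosslinks actin filaments at the Z-discs bordering each sarcomere of heart and skeletal muscle. The gene is active in cardiomyocytes and serves as a marker of the sarcomere, the contractile unit. ATAC-seq, the assay used, inserts adapters with a transposase into DNA that is not packed by nucleosomes, so a region with many reads is open. Promoters and distal regulatory regions are usually among the open stretches.

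The locus was taken as every region of the deposited count table that overlaps chromosome 13 from 12350000 to 12480000 in mouse build mm9, which gave 119 of 1393120 regions. Within it the gene was taken to run from about 12361700 to about 12433000. It is read from the high coordinate to the low one, so its promoter lies near 12433000. These gene ends are approximate, since no mm9 annotation was used here, and exons and introns were not assigned. The window was chosen by the measured levels of its regions in all 6 groups. The levels, fold changes and counts of calls below are therefore a description, and no p-value is given for them.

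The GMT cells carried retroviruses for the heart transcription factors Gata4, Mef2c and Tbx5 and were kept in sb431542, which blocks the TGF-beta pathway, and xav939, which blocks the Wnt pathway. They were sorted as alpha-MHC-GFP+ cells at day 2, 3, 7, 14 or 21. The fibroblasts carried a dsRed virus, received no inhibitor and were sorted as dsRed+ cells at day 7. All cells came from Cd-1 mice of alpha-MHC-GFP genotype, a reporter for the promoter of a cardiac myosin, and were grown from explants of neonatal heart and sorted as Thy1+ and GFP-, a population described as largely fibroblasts. Each group has 3 libraries, stated to be biological replicates. Cells that took up the factors but did not light the reporter are outside the GMT sort. Any difference between GMT cells and fibroblasts combines the virus, the inhibitors and the gate used for sorting, and at days other than 7 also the time in culture, and these cannot be told apart. Levels come from bulk samples, in which fewer cells with an open region and a less open region in each cell cannot be told apart.

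Library totals ran from 2.29 to 23.2 M counts and the window held 326 to 9145 counts per library. One region, on chromosome 1, alone held 4.52 to 49.4% of a library's counts, and levels are therefore given as CPM, the counts per 1 M of an effective library size computed with trimmed means of log ratios (TMM). Fibroblast replicates 1 and 2 were the most alike pair of libraries within a group, with a chi-square per degree of freedom of 1.36, against 2.08 to 20.7 for the other pairs, and were counted separately. The chromosome 1 region held 49.4 and 49.3% of their counts, against 14.5% in fibroblast replicate 3. Their independence was not tested, and each SD of fibroblasts and each SE and call against them rests on it. Day 2 replicate 1 and day 3 replicate 1 stood apart on the second principal component of log2 CPM, at 262.1 and 241.1, where the other 16 libraries lay from -81.38 to 33.44. Day 14 replicate 3 stood apart on the third, at 233.8, where the others lay from -105.3 to 80.27. Cell type markers could not be checked, since regions were not assigned to other genes.

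The promoter window of Actn2 is shown because the region over the promoter coordinate overlapped fibroblasts at first and lay above them from day 7 on. RefSeq places it on GRCm38.p6, a build other than that of the counts, at chr13:12340683-12340982 on the minus strand. It runs from 250 bases before the gene's start to 50 bases after it, 5′ to 3′ along the gene, and capitals mark CACGTG, a palindromic form of the E-box.
Actn2 promoter: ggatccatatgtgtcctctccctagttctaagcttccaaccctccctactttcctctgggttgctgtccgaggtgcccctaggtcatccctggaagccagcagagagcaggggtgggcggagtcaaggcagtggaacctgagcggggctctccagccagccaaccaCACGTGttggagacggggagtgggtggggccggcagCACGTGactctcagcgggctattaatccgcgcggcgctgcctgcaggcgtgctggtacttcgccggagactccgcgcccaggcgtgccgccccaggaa
Its GC content was 64.7%, against a median of 53.0% over 32544 promoter windows of the same length, and it held 19 CpG dinucleotides against a median of 7. The first CACGTG began at base 167, which is 84 bases before the start, and the second at base 203, which is 48 bases before it. A CACGTG was present in 7.17% of all windows. GGGCGG, the GC box, also matched at 2 places and was present in 35.9% of windows. On either strand there was no match to AGATAA, a core read by GATA factors (11.2% of windows), to AGGTGT, a T-box core (13.8%), to the MEF2 motif (3.16%), to the CArG box (1.64%), to TATAAA (13.6%) or to CCAAT (37.4%). Matches describe the letters of this window only, and the other regions of the locus lie outside it.

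Summed over the window, accessibility stood at 198 ± 25.5 CPM at day 2, 216 ± 21.2 at day 3, 289 ± 23.3 at day 7, 279 ± 69.5 at day 14 and 348 ± 78.5 at day 21, against 135 ± 16.9 CPM in fibroblasts (SD, n = 3 each). Every GMT library was above all 3 fibroblast libraries, of which the highest had 151 CPM and the lowest 117 CPM. At day 21 the 3 libraries had 299, 307 and 439 CPM, so replicate 3 sat well above the others. The mean at day 21 was 2.58 times that of fibroblasts and 1.76 times that at day 2. Scaled by library totals alone, the log2 ratio to fibroblasts was 1.86 in place of 1.37 at day 21 and 1.07 in place of 0.55 at day 2. Under that scaling the median log2 fold change of all tested regions was 0.657 in place of 0.0473 at day 21 and 0.629 in place of -0.00269 at day 2.

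The promoter coordinate lay in a region of 2271 bases, chr13:12431429-12433700, which was open in fibroblasts already. It had 3.84, 7.85 and 7.54 CPM at day 2, 5.27, 13.9 and 10.8 CPM at day 3, 18 CPM in each of 3 libraries at day 7, 26.5, 17.2 and 12.1 CPM at day 14, and 19.6, 22.5 and 32.1 CPM at day 21, against 7.66, 9.72 and 11.2 CPM in fibroblasts. Day 2 and day 3 libraries overlapped those of fibroblasts, while every library from day 7 on was above all 3. The fitted log2 fold change against fibroblasts was -0.47 (SE 0.34) at day 2, 0.16 (SE 0.32) at day 3, 0.96 (SE 0.32) at day 7, 1.03 (SE 0.32) at day 14 and 1.42 (SE 0.32) at day 21. Day 21 over day 2 gave 1.89 (SE 0.32), with no overlap of libraries. Day 21 over day 7 gave 0.46 (SE 0.29), and the day 7 level lay below all 3 libraries of day 21. Scaled by library totals alone, the value against fibroblasts was 1.89 at day 21 and 0.00 at day 2.

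The most open region at day 21 lay 28.9 kb upstream of the promoter coordinate, at chr13:12460930-12462914, and is a distal region whose target gene these data do not name. It had 41.6, 39.7 and 55.6 CPM at day 2, 53.5, 46.2 and 45.8 CPM at day 3, 66.9, 65.1 and 64.5 CPM at day 7, 58.4, 42.8 and 33.0 CPM at day 14, and 55.6, 41.1 and 71.4 CPM at day 21, against 14.1, 12.0 and 9.37 CPM in fibroblasts. All 15 GMT libraries were above all 3 fibroblast libraries, and the 5 times overlapped one another except that day 7 lay above days 2, 3 and 14. Its log2 fold change against fibroblasts was 2.22 (SE 0.33) at day 21 and already 1.92 (SE 0.33) at day 2, with 0.30 (SE 0.31) between them.

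Of the tested regions inside the gene, the one nearest the promoter, chr13:12429079-12430762, differed most from fibroblasts. Centred 3.08 kb from the promoter coordinate, it had 9.28, 11.6 and 11.6 CPM at day 2, 10.8, 13.6 and 6.89 CPM at day 3, 14.3, 19.0 and 13.6 CPM at day 7, 23.5, 20.2 and 11.4 CPM at day 14, and 18.5, 21.7 and 37.1 CPM at day 21, against 1.64, 0.694 and 0.360 CPM in fibroblasts. The region was low in fibroblasts, and its lowest GMT library, at day 3, was still several times above the highest fibroblast library. Day 21 lay wholly above day 2. The log2 fold change against fibroblasts was 4.5 (SE 0.41) at day 21 and 3.26 (SE 0.43) at day 2, and that between day 21 and day 2 was 1.25 (SE 0.31). Without fibroblast replicate 1, the highest of the 3 there, the values against fibroblasts were 5.5 and 4.26.

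A second intragenic region, chr13:12375369-12378177, centred 56.2 kb into the gene, had levels at day 2 that overlapped those of all later times. It had 20.2, 14.3 and 19.1 CPM at day 2, 20.3, 15.7 and 13.3 CPM at day 3, 17.5, 18.5 and 13.8 CPM at day 7, 20.0, 20.4 and 9.5 CPM at day 14, and 17.7, 16.2 and 31.9 CPM at day 21, against 3.74, 1.85 and 2.16 CPM in fibroblasts. The 5 times overlapped each other and none overlapped fibroblasts. The log2 fold change was 2.97 (SE 0.36) at day 21 and 2.64 (SE 0.37) at day 2 against fibroblasts, and 0.33 (SE 0.30) between day 21 and day 2.

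**Figure D1:**
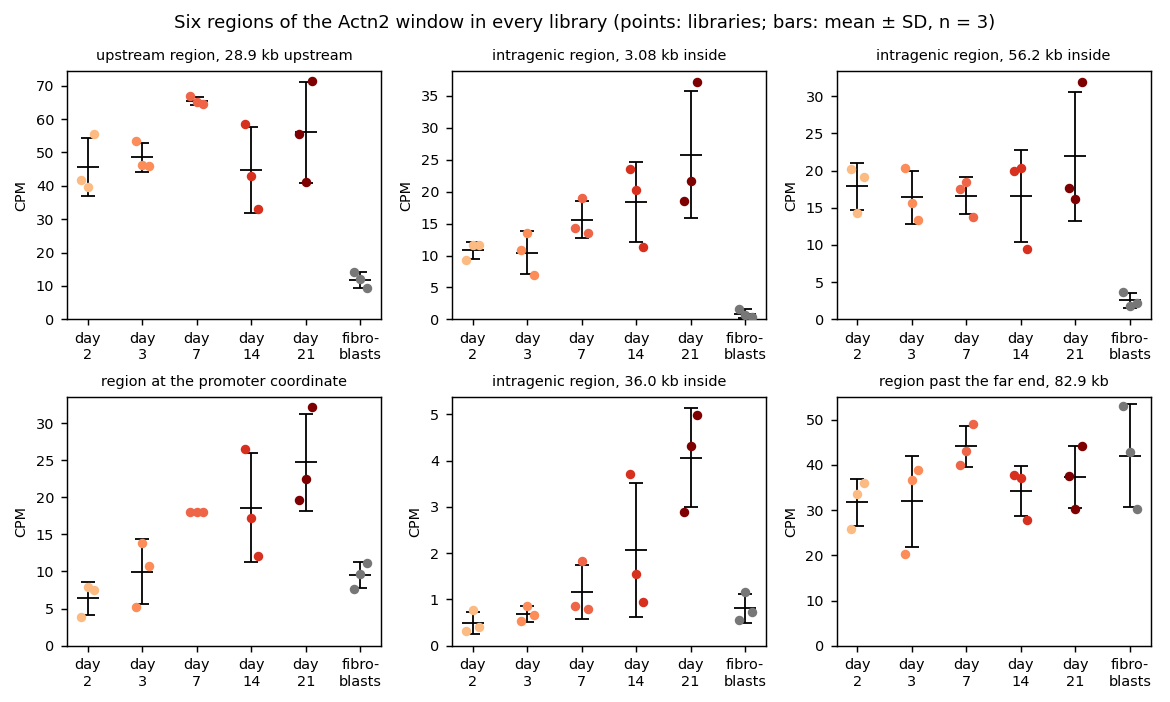
CPM of 6 regions of the Actn2 window in each library, with days 2, 3, 7, 14 and 21 of the GMT cells and then fibroblasts on the horizontal axis. Points are libraries and bars the mean ± SD (n = 3); the upstream region 28.9 kb away and the intragenic regions at 3.08 and 56.2 kb stand above fibroblasts at every time, while the region at the promoter coordinate overlaps fibroblasts at days 2 and 3 and lies above them from day 7.

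Ratios within a library do not depend on its scaling. The promoter region held 0.142 ± 0.053 times the counts of the upstream region at day 2, 0.212 ± 0.104 at day 3, 0.275 ± 0.00532 at day 7, 0.407 ± 0.0437 at day 14 and 0.450 ± 0.0971 at day 21, against 0.847 ± 0.327 in fibroblasts (SD, n = 3 each). All 3 fibroblast libraries, at 0.542, 0.808 and 1.19, were above all but 1 of the GMT libraries, the exception being day 21 replicate 2 at 0.547. Within the GMT cells every library of day 21, at 0.353, 0.547 and 0.450, was above every library of day 2, at 0.0923, 0.198 and 0.136. The intragenic region at 3.08 kb held 1.02 ± 0.117 times the counts of the promoter region at day 21 and 1.81 ± 0.524 times at day 2, against 0.106 ± 0.0958 in fibroblasts. In the reprogramming cells its counts were thus level with those of the promoter region at day 21 and above them at day 2. These ratios are not corrected for width, and the intragenic region is narrower, at 1683 bases against 2271.

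A low-count filter, which needed about 10 counts in at least 3 libraries at the median depth, kept 39 of the 119 regions for the fit across the table. These carried 92.9 ± 0.39% of the window's counts at day 21, against 87.1 ± 2.0% in fibroblasts. The other 80 were narrow, with a median width of 204 bases against 1334, and averaged 0.0462 to 0.649 CPM. By position the 39 were the promoter region, 29 of 60 regions inside the gene, 7 of 52 upstream and 2 of 6 past the far end. Of the 39, the fit of edgeR called 12 higher than fibroblasts at day 2, where 12.2% of all 144810 regions tested were called higher. At day 3 it called 13 higher (13.2% of all regions) and 1 lower (8.84%), and at day 7 it called 15 higher (15.5%). At day 14 it called 19 higher (12.8%) and at day 21 it called 27 higher (13.3%), with 0 lower at days 2, 7, 14 and 21 against 8.09, 12, 9.7 and 10.1% of all regions called lower. The locus was chosen for these levels, so nothing is read from the counts. The count at day 2 was 7 without fibroblast replicate 2 and 7 without day 2 replicate 3. The median log2 fold change of the 39 was 1.73 at day 21 and 0.28 at day 2, beside 0.0473 and -0.00269 over all regions tested. The filter can keep a region for its level at day 21 alone, which can raise the median at that day.

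**Figure D2:**
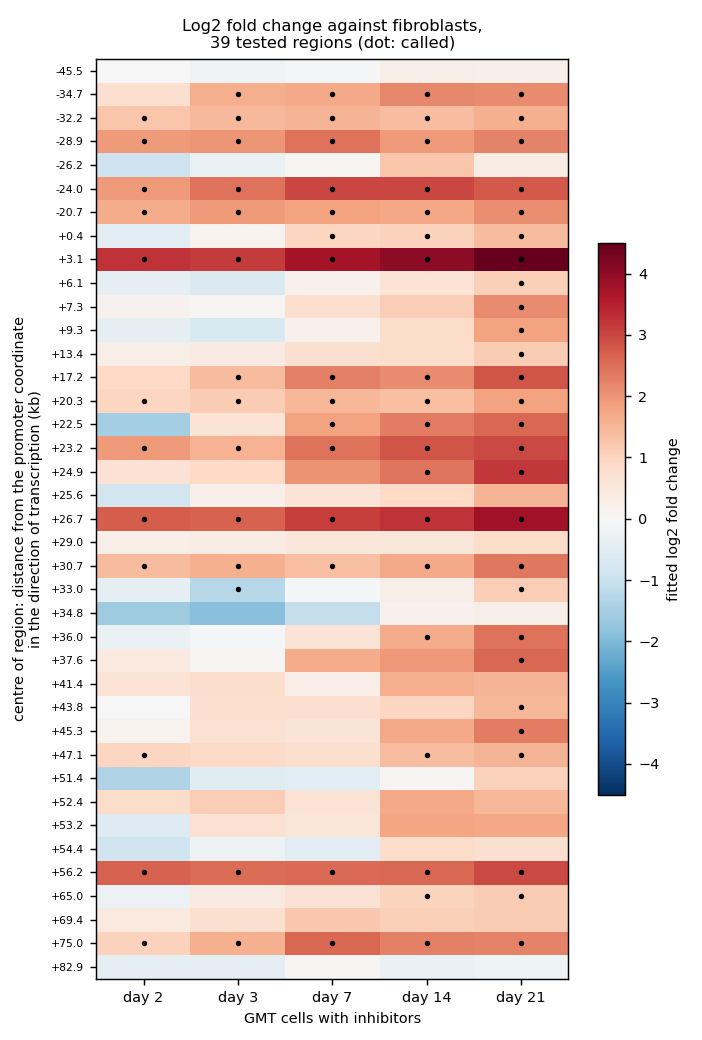
Fitted log2 fold change of GMT cells against fibroblasts for the 39 tested regions, by distance from the promoter coordinate in kb along the gene (rows, upstream at the top) and by day (columns), with a dot where the region was called. Those 28.9 kb upstream and 3.08 and 56.2 kb into the gene are called at all 5 days, and the stretch from 6.13 to 13.4 kb at day 21 alone.

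The 39 regions fell into a few patterns of calls. A group of 11 was called higher than fibroblasts at all 5 times, of which 6 lay inside the gene, 4 upstream and 1 past its far end. Of all regions tested, 7.12% had this pattern. Their means ran from 3.42 to 56.0 CPM at day 21 and from 1.91 to 45.7 CPM at day 2, against 0.367 to 11.8 CPM in fibroblasts. Another 8 were called at day 21 alone, as were 0.847% of all regions tested, and all 8 lay inside the gene, with means of 1.37 to 5.98 CPM at day 21 and 0.303 to 2.82 CPM at day 2, against 0.348 to 2.47 CPM in fibroblasts. The promoter region and the region at 22.5 kb were called at days 7, 14 and 21. The other 6 were called at days 14 and 21 (3 regions), at days 3, 7, 14 and 21 (2 regions) or at days 2, 14 and 21 (1 region). The share of all regions tested was not computed for these mixed patterns or for that of days 7, 14 and 21. Nothing is therefore read from their counts. At no time were 12 of the regions called higher, as was so for 78.9% of all regions tested. These 12 were narrower, with a median width of 614 bases against 1687 for the 11 called throughout. A region called at one time and not at another was not shown to differ between them.

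Among the regions called from day 2 on, chr13:12405497-12407184, centred 26.7 kb into the gene, came after that at 3.08 kb in size of change. It had 6.69, 10.6 and 10.8 CPM at day 21 and 4.48, 4.08 and 4.89 CPM at day 2, against 0.638, 0.694 and 0.721 CPM in fibroblasts, with no overlap between any pair of these groups. Its log2 fold change against fibroblasts was 3.79 (SE 0.44) at day 21 and 2.71 (SE 0.48) at day 2. The regions at 20.3, 23.2 and 30.7 kb had log2 fold changes of 1.80, 2.97 and 2.38 at day 21 and of 0.95, 1.93 and 1.42 at day 2.

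A broad region near the far end of the gene, chr13:12364547-12371409, spans 6862 bases and was called at days 14 and 21. It had 4.16, 4.77 and 6.32 CPM at day 2, 6.07, 10.3 and 7.60 CPM at day 3, 8.65, 12.1 and 8.26 CPM at day 7, 11.8, 15 and 9.74 CPM at day 14, and 13.3, 11.8 and 15.1 CPM at day 21, against 7.48, 4.86 and 5.4 CPM in fibroblasts. Day 2 overlapped fibroblasts and day 21 lay above both. On the log2 scale the difference was 1.14 (SE 0.29) between day 21 and fibroblasts and 1.40 (SE 0.29) between day 21 and day 2. At 47.1 kb, chr13:12384795-12386992 had 8.25, 10.3 and 14.7 CPM at day 21 and 4.48, 8.16 and 9.37 CPM at day 2, against 2.65, 4.16 and 6.13 CPM in fibroblasts. There day 21 lay above fibroblasts, and day 2 overlapped both. Its log2 fold change against fibroblasts was 1.52 (SE 0.33) at day 21 and 0.95 (SE 0.35) at day 2.

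Upstream of the gene, the 4 regions called at all 5 times against fibroblasts were not called between day 21 and day 2. They were the most open region at 28.9 kb and those at 20.7, 24.0 and 32.2 kb. The region at 20.7 kb, chr13:12452763-12454727, had 4.35, 4.0 and 7.44 CPM at day 21 and 5.12, 3.62 and 4.07 CPM at day 2, against 1.19, 2.31 and 0.00 CPM in fibroblasts. The day 21 and day 2 libraries overlapped, and both lay above fibroblasts. The log2 fold change of day 21 over day 2 was 0.41 (SE 0.33) there, 0.82 (SE 0.40) at 24.0 kb and 0.34 (SE 0.32) at 32.2 kb. The region at 34.7 kb, chr13:12467220-12468183, differed more, with 6.24, 5.23 and 4.90 CPM at day 21, against 2.88, 1.46 and 2.44 CPM at day 2 and 1.19, 0.694 and 2.16 CPM in fibroblasts, and a log2 fold change of 1.41 (SE 0.37) between day 21 and day 2.

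Between day 21 and day 2 of the GMT cells, 14 of the 39 regions were called higher, where 0.572% of all regions tested were, and 0 were called lower, where 0.871% were. Of the 14, 11 lay inside the gene, where 29 of the 39 tested regions lay. The others were the promoter region, the upstream region at 34.7 kb and the broad region 75.0 kb past the promoter coordinate. In 23 of the 39 all 3 libraries of day 21 were above all 3 of day 2, as in 9.73% of all regions tested. With all libraries in the fit, all 39 had a log2 fold change above 0, with a range of 0.23 to 4.12 and a median of 1.28, beside 0.0183 over all regions. The median was 1.53 over the 29 regions inside the gene and 0.41 over the 7 upstream. Some of the 39 passed the low-count filter through libraries of later days, which can tilt these values upward. At 24.9 kb, for example, the counts were 0, 5 and 1 at day 2 and 10, 7 and 51 at day 21. Leaving out day 21 replicate 3 left 4 of the 14 calls. Leaving out a library of day 2 gave 9 calls for replicate 1, 4 for replicate 2 and 7 for replicate 3. The count was 6 with scaling by library totals alone and 2 without the low-count filter.

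Among the 39 tested regions, that inside the gene at 36 kb, chr13:12396173-12397851, showed the largest difference between day 21 and day 2 after that at 22.5 kb. It had 0.320, 0.770 and 0.407 CPM at day 2, 0.527, 0.858 and 0.669 CPM at day 3, 0.858, 1.83 and 0.796 CPM at day 7, 3.70, 1.55 and 0.95 CPM at day 14, and 2.90, 4.31 and 4.99 CPM at day 21, against 0.547, 1.16 and 0.721 CPM in fibroblasts. Days 2 and 3 overlapped fibroblasts, and day 21 was above every library of days 2, 3 and 7 and of fibroblasts. The log2 fold change was 2.76 (SE 0.49) between day 21 and day 2 and 2.46 (SE 0.49) between day 21 and fibroblasts, and the first was 3.41 without day 2 replicate 2. At 22.5 kb, chr13:12410295-12410699 held 66 counts in the 3 libraries of day 21 and 2 counts in those of day 2. That gives a ratio of 19.1 with an exact 95% interval of 5.09 to 161, which accounts for counting error and nothing else, as the reads carry no molecular identifiers and may be copies of 1 molecule. The interval pools the libraries of each group and makes no allowance for the region having been picked for its large difference. Both counts of day 2 were in replicate 2, without which the fitted log2 value was 7.10 in place of 4.12 and depends on the prior count. Against fibroblasts its log2 fold change at day 21 was 2.59 (SE 0.67), or 1.68 and no longer called without fibroblast replicate 1.

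Near the promoter, the intragenic regions at 6.13, 7.26 and 9.30 kb were among those called at day 21 alone. The last, chr13:12422748-12424651, had 2.01, 4.62 and 5.38 CPM at day 21, against 1.28, 0.847 and 0.611 CPM at day 2 and 1.19, 0.925 and 1.44 CPM in fibroblasts. The day 2 and fibroblast libraries overlapped and both lay below day 21. At 7.26 kb, chr13:12425270-12426207 had 0.780, 3.23 and 3.22 CPM at day 21, against 0.320, 0.847 and 0.407 CPM at day 2 and 0.547, 0.694 and 0.360 CPM in fibroblasts, so day 21 overlapped day 2 through its replicate 1. At 6.13 kb, chr13:12426347-12427400 had 2.01, 3.08 and 4.56 CPM at day 21, against 0.640, 1.39 and 1.22 CPM at day 2 and 1.46, 1.39 and 2.16 CPM in fibroblasts. There day 21 lay above day 2 and overlapped fibroblasts through its replicate 1. The log2 fold change of day 21 over day 2 was 2.22 (SE 0.45) at 9.30 kb, 1.93 (SE 0.53) at 7.26 kb and 1.47 (SE 0.41) at 6.13 kb. Farther into the gene, the region at 33.0 kb, chr13:12399308-12400642, was the only 1 of the 39 called lower than fibroblasts at any time. It had 3.23, 4.46 and 5.38 CPM at day 21 and 0.791, 1.39 and 0.543 CPM at day 3, against 2.55, 1.62 and 1.44 CPM in fibroblasts. Day 3 lay wholly below fibroblasts and day 21 wholly above them. The log2 fold change against fibroblasts was 1.11 (SE 0.38) at day 21 and -1.27 (SE 0.47) at day 3. The call at day 3 was present in 7 of 18 fits that each left out 1 library, and in none of the 3 that left out a fibroblast library. It was also absent in DESeq2, with library totals and without the low-count filter.

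In the first week, between day 7 and day 2, 3 of the 39 were called higher, where 0.249% of all regions tested were, and 0 lower, where 0.195% were. They were the promoter region, with a log2 fold change of 1.43 (SE 0.32), the region at 22.5 kb and the broad region past the far end at 75.0 kb. Leaving out a library of day 7 gave 1, 0 and 1 calls for replicates 1, 2 and 3. Leaving out replicate 1 of day 2 gave 1 call and replicate 2 gave 0, and the count was 0 with scaling by library totals alone. Between day 21 and day 7 the fit called 0 of the 39 higher and 0 lower, where 0 and 0.00552% of all regions were. At an unadjusted p under 0.05, edgeR gave 15 of the 39, where 5.64% of all regions passed, and DESeq2 gave 11, with 0 called by DESeq2 after adjustment. Nothing is read from the counts at the unadjusted threshold, as the locus was chosen for its levels in these groups. The median log2 fold change was 0.90 over the 29 regions inside the gene, 0.26 over the 7 upstream and 0.46 at the promoter.

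**Figure D3:**
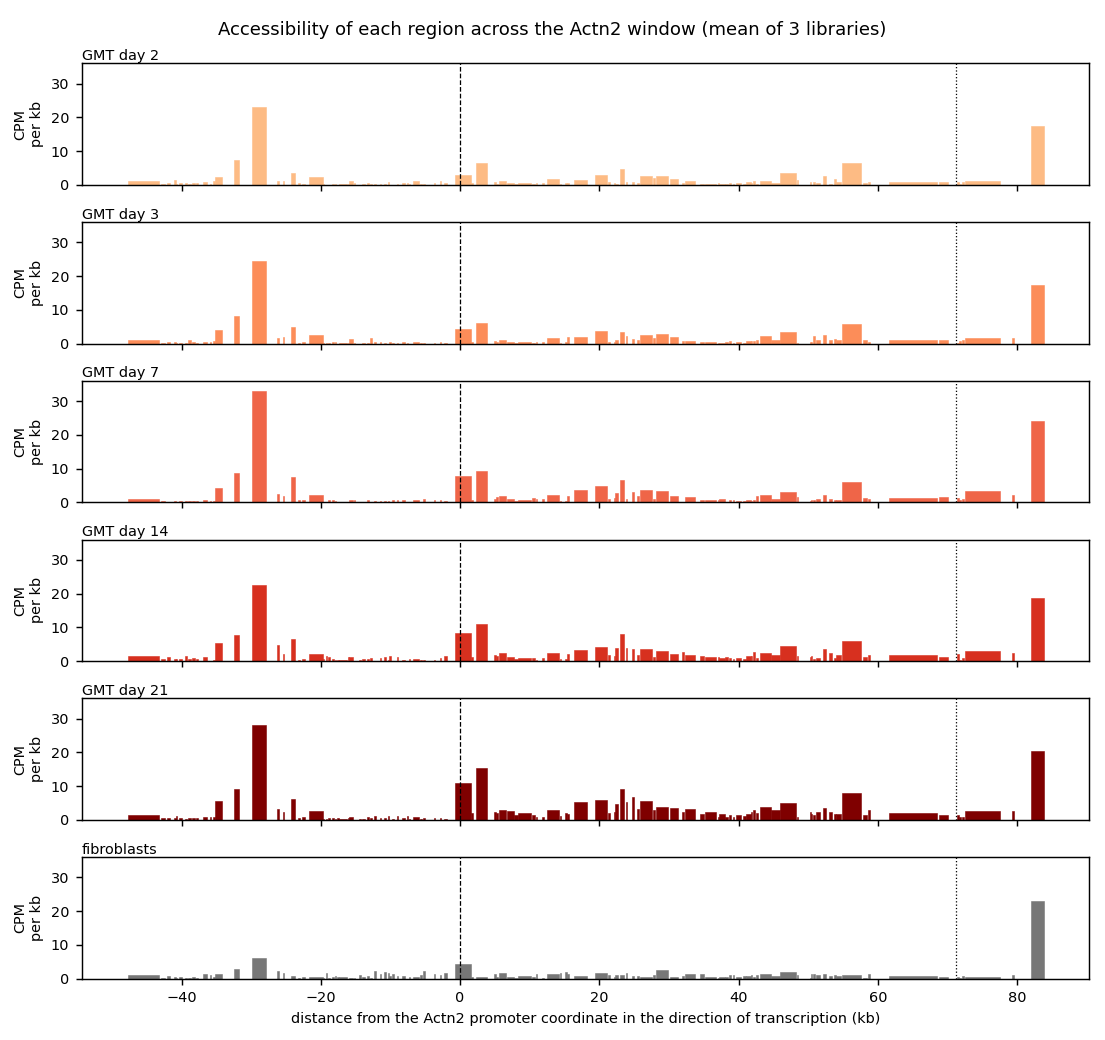
Mean accessibility of each of the 119 regions in CPM per kb of region width (vertical axis) against distance from the Actn2 promoter coordinate in the direction of transcription in kb (horizontal axis), with GMT days 2, 3, 7, 14 and 21 above fibroblasts. The dashed line is the promoter coordinate and the dotted line the far end of the gene; the region 28.9 kb upstream is high at all 5 GMT times, the intragenic regions fill in towards day 21, and the region at 82.9 kb is of similar height throughout.

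Summed by position, the 60 regions inside the gene had 82.5 ± 9.89 CPM at day 2, 89.4 ± 13.6 at day 3, 112 ± 19.5 at day 7, 131 ± 42.5 at day 14 and 180 ± 55.2 at day 21, against 47.8 ± 2.10 CPM in fibroblasts (SD, n = 3 each). The libraries of day 21, at 133, 168 and 241 CPM, were all above those of days 2 and 3 and overlapped those of days 7 and 14. The 52 regions upstream had 71.0 ± 11 CPM at day 2, 95.8 ± 1.67 at day 7 and 91.2 ± 16.2 at day 21, against 32.4 ± 5.64 CPM in fibroblasts. Inside the gene the day 21 mean was 2.19 times that of day 2, and upstream it was 1.28 times. As a share of the window's counts, the inside of the gene held 51.3 ± 6.06% at day 21 and 41.7 ± 1.81% at day 2, against 35.6 ± 3.69% in fibroblasts. The upstream share was 26.4 ± 2.82% at day 21 and 35.9 ± 3.81% at day 2, against 23.9 ± 1.65% in fibroblasts. Without the 3 libraries that stood apart, the summed window gave log2 ratios to fibroblasts of 0.63, 0.75 and 1.22 for days 2, 3 and 14.

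**Figure D4:**
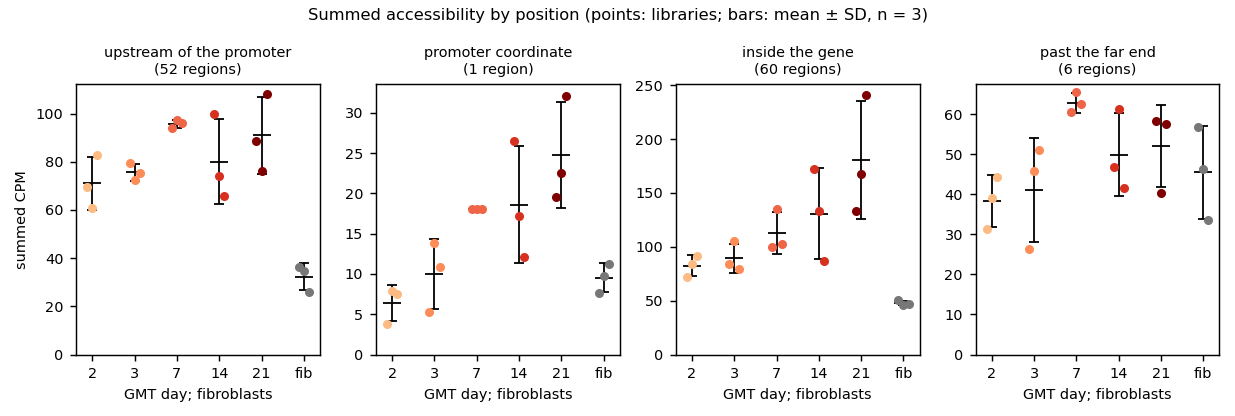
Summed CPM of the window's regions upstream of the promoter (52), at the promoter coordinate (1), inside the gene (60) and past its far end (6), by GMT day and in fibroblasts. Points are libraries and bars the mean ± SD (n = 3); the inside of the gene has its highest mean at day 21, and the stretch past the far end overlaps fibroblasts at days 2, 3, 14 and 21.

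The 31 regions inside the gene that were too low to test together had 4.93 ± 1.07 CPM at day 2, 6.03 ± 0.981 at day 3, 6.89 ± 0.995 at day 7, 10.6 ± 4.08 at day 14 and 15.3 ± 3.80 at day 21, against 6.96 ± 1.67 CPM in fibroblasts. Each library of day 21 was above each library of day 2 and of fibroblasts, and the day 21 mean was 3.09 times that of day 2. The 45 untested regions upstream had 7.95 ± 0.679 CPM at day 21, against 6.13 ± 0.855 CPM at day 2 and 10.0 ± 2.42 CPM in fibroblasts, a ratio of 1.30 between day 21 and day 2. Over all untested regions of the table that ratio was 1.06.

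Past the far end of the gene 2 regions were tested. The broad one, chr13:12355430-12360505, spans 5075 bases and had 18.7, 9.39 and 12.5 CPM at day 21, against 5.12, 4.93 and 8.15 CPM at day 2 and 2.83, 3.01 and 2.88 CPM in fibroblasts. None of these groups overlapped, and the log2 fold change was 2.22 (SE 0.36) between day 21 and fibroblasts and 1.18 (SE 0.32) between day 21 and day 2. The other, chr13:12349176-12351001, had 37.5, 30.3 and 44.2 CPM at day 21 and 25.9, 33.5 and 35.9 CPM at day 2, against 53.0, 42.8 and 30.3 CPM in fibroblasts. It overlapped fibroblasts at every time and was called at none, and its log2 fold change against fibroblasts lay from -0.41 to 0.06, with 0.17 at day 2 and 0.38 at day 21 when scaled by library totals alone. In the order of genes on GRCm38.p6, the neighbours on this side are Gm10336, a long noncoding RNA, and Mtr, which encodes methionine synthase. On the upstream side come Gm40667, a long noncoding RNA, the pseudogene Gm5445 and Heatr1.

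The regions just outside the window were open in fibroblasts too. The first region below it, chr13:12348170-12349142, averaged 2.81 ± 0.935 CPM at day 21, against 4.18 ± 0.739 CPM in fibroblasts. The first above it, chr13:12486515-12488310, averaged 45.2 ± 7.60 CPM at day 21, against 38.9 ± 2.18 CPM in fibroblasts. At the upstream limit inside the window, chr13:12476204-12480728, which spans 4524 bases, had 5.80, 4.77 and 7.01 CPM at day 21 and 6.40, 3.62 and 6.11 CPM at day 2, against 4.93, 6.01 and 4.32 CPM in fibroblasts. These 3 groups overlapped, and the log2 fold change was 0.23 (SE 0.30) between day 21 and day 2, or -0.08 without day 2 replicate 2.

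Across the 18 libraries, the region whose log2 CPM ran closest to that of the promoter region, among the 56352 regions outside the window with a mean log2 CPM of at least 1, was chr1:122744785-122746092 (Pearson's r 0.947). It averaged 4.59 CPM at day 21 and 2.08 CPM at day 2, against 2.69 CPM in fibroblasts. Next came chr14:52531996-52535511 (r 0.940) and chr13:46513106-46516412 (r 0.937). The last averaged 15.5 CPM at day 21 and 3.26 CPM at day 2, against 5.39 CPM in fibroblasts. The libraries share depth and group, so these correlations describe likeness of profile only, and no gene was assigned to the regions.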

How the data were processed

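Accessibility was measured by ATAC-seq in 18 libraries of 6 groups. The labels list 36 samples, of which these 18 match a column, and the remaining 18 were not analysed here. The deposited table holds raw counts of reads per region. Bowtie2, Picard, MACS2 and edgeR are named, with build mm9, per the submitters' processing notes. Versions, settings and any pooling of libraries before regions were called were not given in the sources used here. An incomplete last line of the table was dropped. Libraries were sequenced at either of a pair of cores, and which library went where is not given.

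Counts were scaled by TMM in edgeR 4.0.16 (R 4.3.3) and filtered with filterByExpr (minimum count 10, minimum total 15), which kept 144810 of 1393120 regions. A fit with 1 mean per group over all libraries (glmQLFit, robust, 12 residual degrees of freedom, common biological coefficient of variation 23.8%) was tested with glmQLFTest, two-sided. A region was called at a Benjamini-Hochberg adjusted p under 0.05 over all regions tested. Fitted log2 fold changes are printed, with a prior count of 0.125. Each SE was calculated back from the test. It is the log2 fold change without prior count and without sign, divided by the square root of the test's F value. DESeq2 1.42.0, another scaling, other filters, a replicate block, fits of 2 groups and leaving out libraries were tried.

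The locus, the positions and the rule for regions described in full were chosen with earlier results of these data known. That rule takes the promoter region, the regions of highest mean CPM, and the 2 with the largest and the 2 with the smallest difference between day 21 and day 2. Other regions were described after their values were seen. Lists of sarcomere genes and cell type markers were not run, since no mm9 annotation was used. The promoter sequence comes from RefSeq, and no coordinates were converted between builds. The smallest library held 2.29 M counts, which limits the precision of low regions.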

Additional observations from a re-analysis of the deposited data

Results flagged for a closer look

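Between GMT groups, edgeR's adjusted test of the difference itself called 14 of the 39 tested regions of the Actn2 window between day 21 and day 2. Of all regions tested, 0.572% were called higher and 0.871% lower. Between day 7 and day 2 it called 3, where 0.249% were called higher and 0.195% lower. The 14 became 4 without day 21 replicate 3 or without day 2 replicate 2, and 2 without the low-count filter. The 3 became 0 with scaling by library totals alone. The locus had been chosen for its levels, so these values describe it. Between day 7 and day 2 the log2 fold change was 1.43 at the promoter region, 3.32 at 22.5 kb into the gene and 1.55 in the broad region at 75.0 kb past the promoter coordinate.

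Between day 21 and day 2 it was 1.89 at the promoter region. Moving into the gene, it was 1.25 at 3.08 kb, 1.47 at 6.13 kb, 1.93 at 7.26 kb, 2.22 at 9.30 kb and 1.93 at 17.2 kb. Farther in, it was 4.12 at 22.5 kb, 2.55 at 24.9 kb, 1.54 at 33.0 kb, 2.76 at 36 kb, 1.53 at 43.8 kb and 1.40 at 65.0 kb. Past the far end it was 1.18 at 75.0 kb, and upstream it was 1.41 at 34.7 kb. The value at 22.5 kb rests on 2 counts at day 2, both in replicate 2, so it depends on the prior count of the fit. It was 7.10 without that library. The value at 24.9 kb also rests on few counts, with 0, 5 and 1 in the libraries of day 2, and had an SE of 0.72.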

How the results depend on the processing

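Changes of sign were looked for only in the regions that the rule describes in full, against fibroblasts at days 2 and 21 and for day 21 over day 2. For the promoter region every day was included. The alternatives were other scalings, a replicate block, another prior count and leaving out 1 library. No called fold change changed sign there. Values not called changed sign in several cases, not all listed here. Scaling by library totals put the region at 82.9 kb at 0.17 at day 2 (-0.41 reported) and that at 65.0 kb at 0.33 (-0.26 reported). Leaving out 1 library gave -0.93 to 0.13 at 36 kb and -0.05 to 0.33 at 45.5 kb upstream at day 2. It gave -0.13 to 0.52 for the promoter region at day 3 and -0.31 to 0.09 at 82.9 kb at day 21. For day 21 over day 2 it gave -0.06 to 0.54 at 56.2 kb and -0.08 to 0.41 at 45.5 kb upstream. Of the summary values, 344 stayed near the reported one under an alternative and 29 moved, and the cause was not tested. The rule was loose, as 10 calls in place of 14 were taken as near, and log2 values if within their spread or SE. Many alternatives left out a library of neither group compared, so the 344 says little about robustness. For calls at day 2 against fibroblasts (12), a stricter filter gave 7 and no filter 6. At day 14 library totals gave 29 (19 reported). Between day 7 and day 2 (3) library totals and no filter gave 0. For day 21 over day 7 (0), leaving out the libraries that stood apart gave 2 and a fit of those 2 groups 2. For day 21 over day 2 (14), library totals gave 6, no filter 2 and DESeq2 9. The log2 ratio of the summed window to fibroblasts was 1.07, 1.11 and 1.86 at days 2, 3 and 21 by library totals (0.55, 0.68 and 1.37 reported), and 1.84 at day 21 with the gene ends alone. The promoter region at day 21 gave 1.89 by library totals (1.42 reported).

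Leaving out 1 library, calls against fibroblasts ran from 7 to 12, 11 to 15, 12 to 20, 14 to 24 and 20 to 31 at days 2, 3, 7, 14 and 21. They ran from 0 to 4 between day 7 and day 2, 0 to 1 between day 21 and day 7 and 4 to 16 between day 21 and day 2. The summed log2 ratio ran from 0.45 to 0.64, 0.59 to 0.77, 1.01 to 1.18, 0.87 to 1.22 and 1.17 to 1.46, and that of the promoter region from -0.64 to -0.14, -0.13 to 0.52, 0.79 to 1.21, 0.68 to 1.36 and 1.18 to 1.70.

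With the replicate number as a block, the counts were 9, 13, 15, 19 and 26 against fibroblasts, 3 between day 7 and day 2, 0 between day 21 and day 7 and 13 between day 21 and day 2. The region at 33.0 kb, called lower at day 3, was not called with the block (log2 fold change -1.18). With each group's mean removed, libraries of the same number correlated over 0.1 in 2 of 45 pairs, against 6 of 90 pairs of different number. The highest value was 0.321 for the same number, between replicate 1 of day 2 and of day 3, and 0.22 for different numbers. Of the 18 libraries, 4 were closest to their own number. With 3 libraries per group these values cannot decide whether the numbers pair libraries.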
